A study of Homo sapiens with 18 samples.

Results

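Heme oxygenase 1 (HMOX1) and 9 further genes of the NRF2 oxidative stress response, NQO1, GCLM, GCLC, TXNRD1, SRXN1, AKR1B10, AKR1C1, NFE2L2 and BACH1, were followed across all 6 groups of the series. They are 10 of 27086 genes obtained by summing deposited estimated counts from RefSeq transcripts to genes. The 10 genes were picked with their levels in these libraries known. Their differences between each hairpin and its control, and between sh45 and sh43, are therefore given as a description with no test.

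The libraries came from 786-O, an established human line of kidney cancer without working VHL. The ZHX2 experiment held cells with the hairpin sh45 or sh43 against ZHX2, a zinc-finger and homeobox transcription factor, and cells with a control hairpin (shCtrl). The USP13 experiment held cells with the hairpin sh52 or sh50 against USP13, a deubiquitinating enzyme, and its own shCtrl cells. The series asks how both proteins act in kidney cancer. Each of the 6 groups had 3 libraries of the same line in the same medium, and the labels give no time after knockdown. They do not say whether the 3 libraries came from separate cultures, so the errors measure the spread between libraries, which may be technical.

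NRF2, the protein of NFE2L2, is a transcription factor that KEAP1 holds in the cytoplasm and marks for degradation. When oxidants or electrophiles modify KEAP1, NRF2 accumulates, pairs with a small MAF protein and binds antioxidant response elements (AREs) in its target genes. BACH1 competes for the same elements, holds HMOX1 down and leaves DNA when heme binds it. The control is largely exerted on the NRF2 protein, which RNA levels do not show.

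Promoter sequence was read for the members because the ARE is the element that the family is known for. RefSeq windows on GRCh38.p14, from 250 bases before a gene's start to 50 bases after it, were found for 8 of the 10 members, HMOX1 and AKR1B10 not among them. The ARE core letters TGACNNNGC, searched on both strands, occurred in the windows of GCLM and TXNRD1. A further TXNRD1 match, at -8 to 0 of the upstream start, reaches the start base and is not shown. The other matches are shown 5′ to 3′ on the gene's strand with the core in capitals. The GCLM match lay at positions -34 to -26 from the start, in chr1:93909431-93909489 (minus strand). The TXNRD1 match at -102 to -94 of its downstream start lay in chr12:104286905-104286963, and the match at -99 to -91 of its upstream start lay in chr12:104215655-104215713 (both plus strand).
GCLM: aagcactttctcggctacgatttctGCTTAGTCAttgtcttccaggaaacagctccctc
TXNRD1 downstream start: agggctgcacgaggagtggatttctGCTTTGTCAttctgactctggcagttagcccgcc
TXNRD1 upstream start: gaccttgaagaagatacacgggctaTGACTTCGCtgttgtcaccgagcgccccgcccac
The same core letters occurred in 13.3% of all 35116 windows and in at least 1 window of 16.1% of 27305 genes. Of a list of 30 further NRF2 target genes, 21 had a window and 7 had a match. A match describes letters in a window and not a site in use. No match says only that these letters are not in the window.

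The targeted genes were examined first. ZHX2 averaged 84.1 ± 5.87 CPM in sh45 cells, 40.2 ± 2.73 CPM in sh43 cells and 343 ± 2.18 CPM in shCtrl cells (SD, n = 3 each), where CPM is the gene's count scaled for library depth by TMM. USP13 averaged 16.9 ± 1.81 CPM in sh52 cells, 18.1 ± 2.03 CPM in sh50 cells and 34.5 ± 2.57 CPM in shCtrl cells. Each target fell under both of its hairpins in edgeR's quasi-likelihood test, with adjusted p between 4.3e-24 and 6.37e-07. In the labels' protocol hairpins 43 and 45 are listed under USP13, but titles and characteristics place them under ZHX2. In these libraries ZHX2 was the gene with the large decrease. On the log2 scale ZHX2 also differed from shCtrl by -0.17 under sh52 and -0.20 under sh50. USP13 differed from shCtrl by -0.23 under sh43 and 0.17 under sh45. Libraries held 11192561 to 16511290 counts. Replicate 1 of sh52 stood apart with 15490 genes counted, against at least 15867 in every other library. Where leaving it out changed a call named here or moved a called difference by over 1.5 times, the value without it is given. Mitochondrial ribosomal RNA took 2.83% to 3.35% of counts in sh45 libraries, 1.51% to 1.57% in sh43 libraries and 1.18% to 1.32% in their shCtrl libraries. For the USP13 hairpins it took 3.54% to 3.8% under sh52, 4.11% to 4.43% under sh50 and 2.54% to 2.7% in shCtrl. Its part in the results was not tested. All 9 renal carcinoma and epithelial markers examined were expressed, and 8 of 12 leukocyte markers stayed under 10 counts in every library, with CD3E, CD163 and FCGR3A at 0. The leukocyte marker sum was mostly CD68, a lysosomal protein gene, at 57.1 to 61.3 CPM in sh45 and 16.6 to 17.9 CPM in sh43, while PTPRC was at 0 in every ZHX2 library. Summed leukocyte markers reached 59.2 to 62.8 CPM in sh45, 19.9 to 21 CPM in sh43 and 38.1 to 45.7 CPM in shCtrl. They reached 37.4 to 39 CPM in sh52, 19.6 to 24.4 CPM in sh50 and 29.4 to 32.8 CPM in shCtrl. Summed endothelial markers reached 1.11 to 1.58 CPM in sh45, 3.73 to 4.68 CPM in sh43 and 0.765 to 1.3 CPM in shCtrl. The part of these markers in the results was not tested. In bulk RNA, fewer cells of a kind and less RNA per cell cannot be told apart.

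HMOX1 (chromosome 22) encodes the inducible enzyme that opens the heme ring to biliverdin, iron and carbon monoxide. In the ZHX2 experiment it stood at 29.6, 28.4 and 28.2 CPM in sh45 cells, at 333, 283 and 324 CPM in sh43 cells, and at 37.3, 36.1 and 35.5 CPM in shCtrl cells. The 3 sh43 libraries were far above all others, and the 3 sh45 libraries were below every shCtrl library. The log2 difference was 3.11 ± 0.07 (SE) for sh43 over shCtrl, an 8.63-fold higher level, and -0.34 ± 0.07 for sh45 over shCtrl. For sh45 over sh43 it was -3.44 ± 0.07, a 10.9-fold lower level. HMOX1 ranked 75 from the highest difference among 13604 tested genes in sh43 over shCtrl, and 25 from the lowest in sh45 over sh43. The 2 hairpins against ZHX2 thus left HMOX1 on opposite sides of the control, while ZHX2 itself was lower under both.

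Under the USP13 hairpins the differences in HMOX1 were smaller. It stood at 37.1, 46.8 and 48.9 CPM in sh52 cells, at 38.8, 40.6 and 36.4 CPM in sh50 cells, and at 48.8, 51.7 and 52.5 CPM in shCtrl cells. The sh50 libraries were all below the shCtrl libraries, whereas the sh52 libraries overlapped them, with replicate 1 lowest. The log2 difference was -0.21 ± 0.09 for sh52 over shCtrl and -0.40 ± 0.09 for sh50 over shCtrl. Without sh52 replicate 1, the first of these was -0.09.

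**Figure D1:**
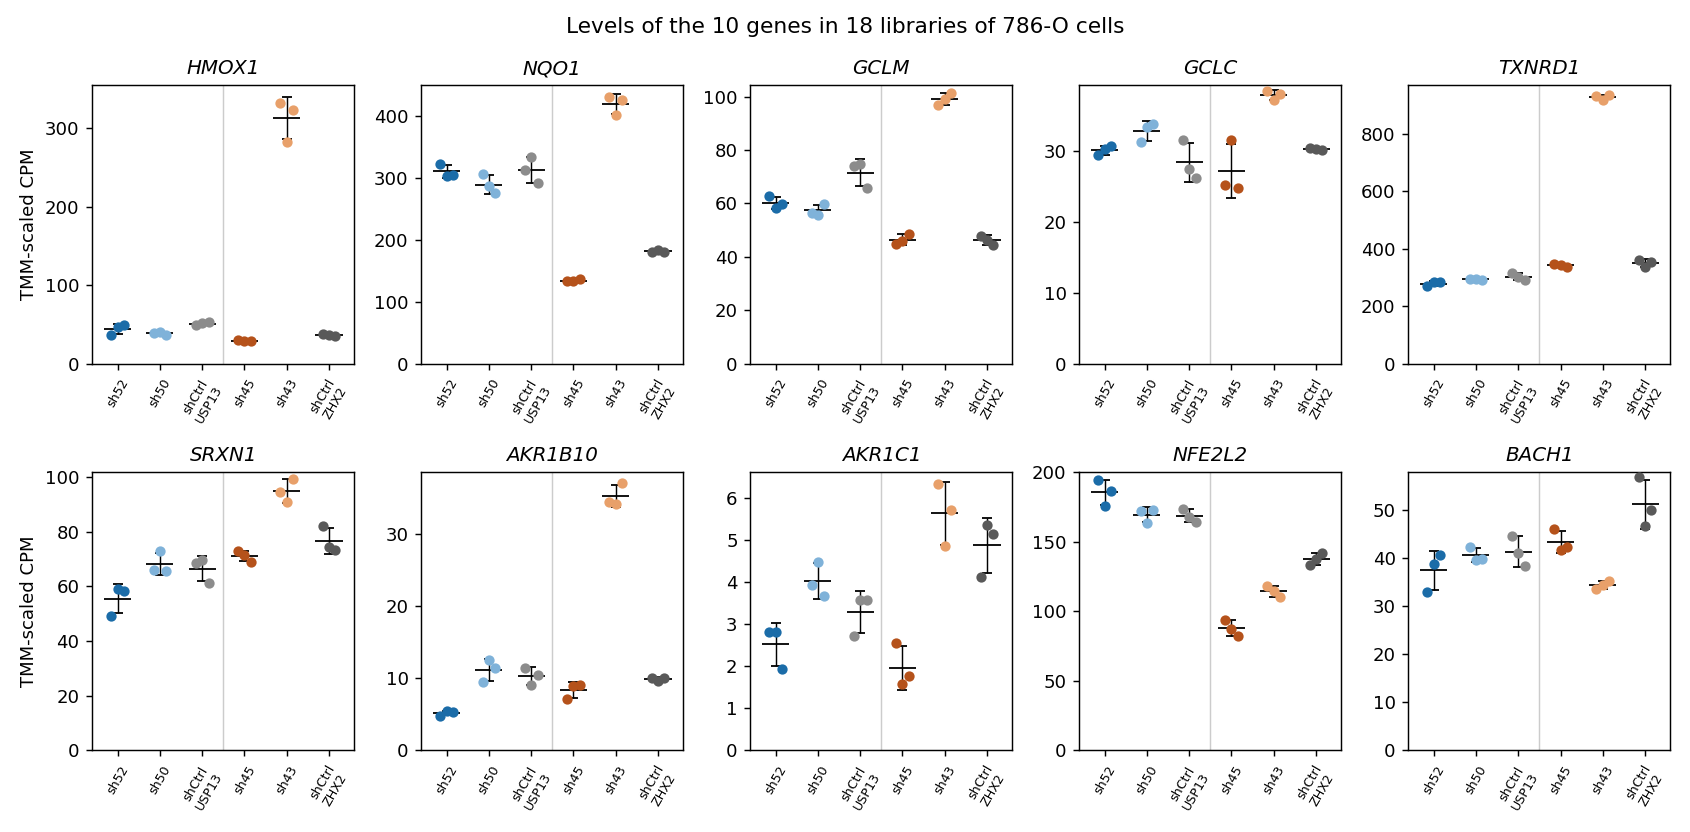
Levels of the 10 genes in each library (points, TMM-scaled CPM, linear axes from 0) with the group mean and SD (lines, n = 3), in the order sh52, sh50, shCtrl for the USP13 experiment and sh45, sh43, shCtrl for the ZHX2 experiment. The sh43 libraries stand above all others for HMOX1 (283 to 333 CPM), TXNRD1, AKR1B10, NQO1, GCLM, GCLC and SRXN1.

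NQO1 (chromosome 16), a quinone reductase and a classic NRF2 target, followed HMOX1 in direction in the ZHX2 experiment. It stood at 133, 133 and 136 CPM in sh45 cells, at 431, 402 and 426 CPM in sh43 cells, and at 181, 183 and 181 CPM in shCtrl cells. No library of 1 group reached into another, with sh45 lowest and sh43 highest. The log2 difference was -0.44 for sh45 and 1.21 for sh43 over shCtrl, and the level under sh43 was 2.31-fold higher. Under the USP13 hairpins the groups overlapped, at 304 to 323 CPM in sh52, 275 to 306 CPM in sh50 and 292 to 334 CPM in shCtrl.

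TXNRD1 (chromosome 12), the cytosolic thioredoxin reductase, was high under sh43 and near control under sh45. It stood at 347, 344 and 336 CPM in sh45 cells, at 932, 919 and 936 CPM in sh43 cells, and at 361, 335 and 353 CPM in shCtrl cells. The sh45 and shCtrl libraries overlapped and the sh43 libraries stood far above both. The log2 difference was 1.41 ± 0.04 for sh43 over shCtrl, a 2.66-fold higher level, and -0.03 ± 0.04 for sh45 over shCtrl. TXNRD1 in the USP13 experiment ranged over 270 to 284 CPM in sh52, 290 to 296 CPM in sh50 and 293 to 315 CPM in shCtrl.

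SRXN1 (chromosome 20), sulfiredoxin, restores overoxidized peroxiredoxins. It stood at 73.0, 71.4 and 69.0 CPM in sh45 cells, at 94.5, 90.9 and 99.5 CPM in sh43 cells, and at 82.2, 74.4 and 73.4 CPM in shCtrl cells. The sh43 libraries lay above and the sh45 libraries just below the shCtrl libraries, for log2 differences of 0.31 and -0.11. Its levels in the USP13 experiment were 49.3, 59.1 and 58.3 CPM in sh52, 66.1, 72.8 and 65.6 CPM in sh50, and 68.5, 69.8 and 61.4 CPM in shCtrl. There the sh52 libraries were lowest, and sh50 overlapped shCtrl.

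GCLM and GCLC encode the modifier and catalytic subunits of glutamate-cysteine ligase, which makes the first committed step of glutathione synthesis. GCLM (chromosome 1) stood at 44.7, 46.0 and 48.7 CPM in sh45 cells, at 97.0, 99.2 and 102 CPM in sh43 cells, and at 48.0, 46.5 and 44.5 CPM in shCtrl cells. The sh43 libraries were about 2.14-fold above control, a log2 difference of 1.10, and sh45 overlapped shCtrl. GCLC (chromosome 6) differed less, at 24.7 to 31.5 CPM in sh45, 37.1 to 38.4 CPM in sh43 and 30.0 to 30.3 CPM in shCtrl, with a log2 difference of 0.33 for sh43. Under sh43 the log2 difference of the catalytic subunit was the smaller of the pair. With the USP13 hairpins GCLM stood at 58.1 to 62.7 CPM in sh52, 55.8 to 59.8 CPM in sh50 and 65.9 to 74.9 CPM in shCtrl, both hairpins below every control library. GCLC overlapped control there, at 29.4 to 30.6 CPM in sh52, 31.2 to 33.8 CPM in sh50 and 26.2 to 31.5 CPM in shCtrl.

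AKR1B10 (chromosome 7) and AKR1C1 (chromosome 10) are aldo-keto reductases that reduce reactive carbonyls and steroids. AKR1B10 stood at 7.13, 8.98 and 9.03 CPM in sh45 cells, at 34.5, 34.3 and 37.1 CPM in sh43 cells, and at 10.0, 9.64 and 10.1 CPM in shCtrl cells. The sh43 libraries were 3.55-fold above control, a log2 difference of 1.83 ± 0.10, and the sh45 libraries were just below control. Among the USP13 libraries it stood at 4.81, 5.41 and 5.31 CPM in sh52 cells, at 9.56, 12.5 and 11.5 CPM in sh50 cells, and at 11.4, 9.08 and 10.4 CPM in shCtrl cells. Every sh52 library was below all others, with a log2 difference of -0.99 ± 0.16 over shCtrl and -0.94 without sh52 replicate 1, while sh50 overlapped shCtrl.

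AKR1C1 was the least abundant member, at 20 to 88 counts per library. It stood at 2.55, 1.58 and 1.77 CPM in sh45 cells, at 6.34, 4.85 and 5.72 CPM in sh43 cells, and at 4.13, 5.36 and 5.14 CPM in shCtrl cells. The sh45 libraries were lowest, with a log2 difference of -1.30 ± 0.23, and sh43 overlapped shCtrl. Its reads can be shared with the related AKR1C2 and AKR1C3, and those of AKR1B10 with AKR1B15, so the division between copies is an estimate.

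The pair of regulators differed from the enzymes in the ZHX2 experiment. NFE2L2 (chromosome 2) stood at 93.4, 87.5 and 82.1 CPM in sh45 cells, at 118, 114 and 110 CPM in sh43 cells, and at 133, 137 and 142 CPM in shCtrl cells. BACH1 (chromosome 21) stood at 46.0, 41.7 and 42.4 CPM in sh45 cells, at 33.5, 34.3 and 35.2 CPM in sh43 cells, and at 56.8, 46.8 and 50.1 CPM in shCtrl cells. Both RNAs were below control in every library of either hairpin, NFE2L2 lowest in sh45 and BACH1 lowest in sh43. The log2 difference over shCtrl was -0.65 for NFE2L2 and -0.24 for BACH1 under sh45, and -0.27 and -0.58 under sh43. In the USP13 experiment NFE2L2 ranged over 176 to 194 CPM in sh52, 163 to 172 CPM in sh50 and 164 to 174 CPM in shCtrl, and BACH1 overlapped between all 3 groups. Exons of NFE2L2, NQO1, GCLC and BACH1 overlap genes on the opposite strand, and the library kit does not mark strand. Exons of SRXN1, GCLC, NFE2L2 and BACH1 overlap genes on the same strand. Reads of such partners cannot be told apart.

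**Figure D2:**
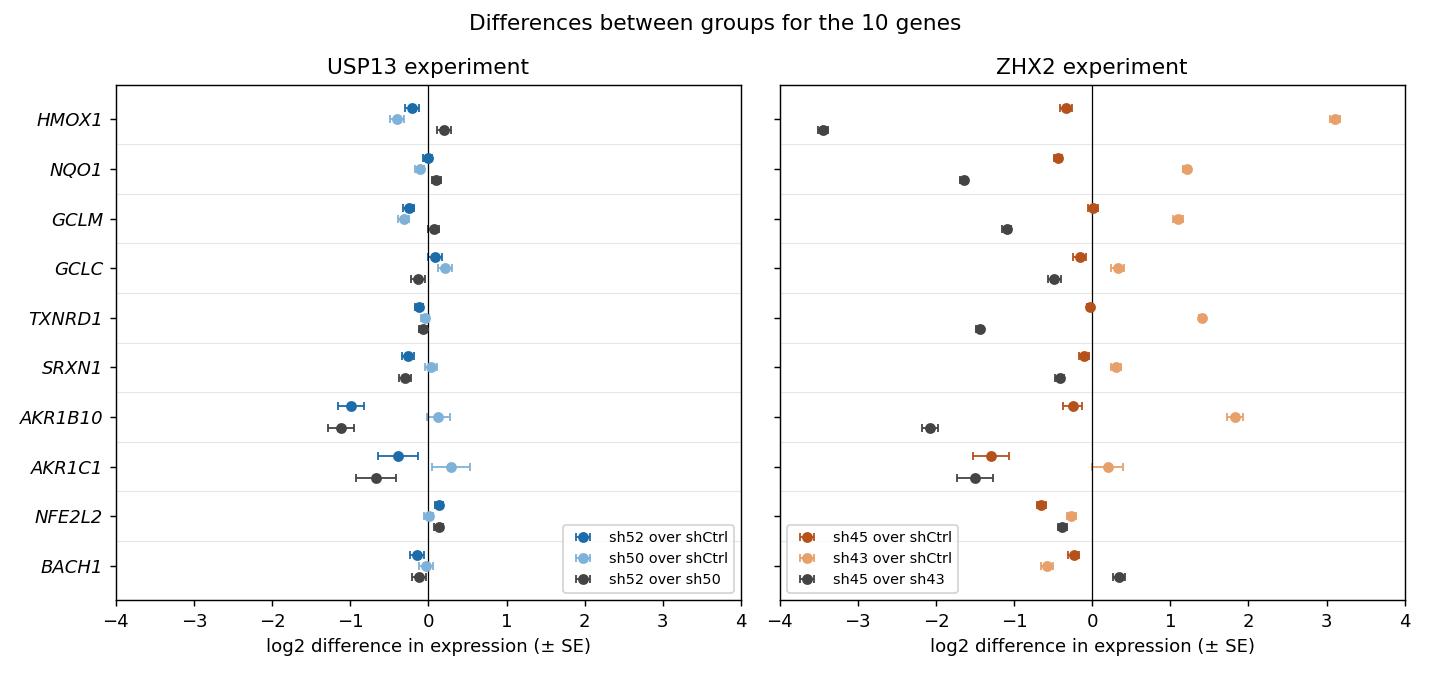
Log2 difference of each of the 10 genes with its SE (points and bars) for the 3 comparisons of each experiment, drawn with no mark for a test. Under sh43 over shCtrl, HMOX1 lies at 3.11 and AKR1B10 at 1.83, and NFE2L2 and BACH1 lie below 0.

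Counted over the 10 members, 5 were called lower for sh45 over shCtrl, where 25.3% of all tested genes were called higher and 27.3% lower. For sh43 over shCtrl 7 were called higher and 2 lower, beside 33.5% and 35.2% of all genes. For sh45 over sh43 the counts were 1 higher and 9 lower, beside 34.2% and 32.7%. Under the USP13 hairpins 3 were called lower for sh52 over shCtrl (5.45% of all genes were called higher and 6.56% lower), and 2 lower for sh50 over shCtrl (10.2% and 11.3%). Without sh52 replicate 1, SRXN1 stood at -0.18 over shCtrl and was no longer called, which left GCLM and AKR1B10. Over 15 alternative settings, the sh52 calls of GCLM and SRXN1 were kept in 11 and 12, and the sh45 call of BACH1 in 14. Groups whose libraries did not overlap in CPM were counted as well. For sh45 over shCtrl 7 members lay lower, beside 27.9% of all genes higher and 29.3% lower. For sh43 over shCtrl 7 lay higher and 2 lower, beside 34.4% and 35.9%. For sh45 over sh43 1 lay higher and 9 lower, beside 35.8% and 34.5%. For sh52 over shCtrl 1 lay higher and 4 lower, beside 13.4% and 14.4%, and for sh50 over shCtrl 1 and 2, beside 18.6% and 19.6%. Since the members were chosen on these contrasts, nothing is read from the counts.

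Levels between genes were compared per transcript length as deposited TPM. In shCtrl cells of the ZHX2 experiment TXNRD1 was highest at 159 TPM, followed by NQO1 at 138 TPM, NFE2L2 at 90.1 TPM, SRXN1 at 53.9 TPM and HMOX1 at 46.8 TPM. In sh43 cells HMOX1 stood at 382 TPM, close to TXNRD1 at 399 TPM and above NQO1 at 300 TPM. BACH1, GCLM, GCLC and AKR1B10 followed in those controls, down to AKR1C1 at 7.48 TPM.

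All 18 libraries were also put on a common scale to order the 6 groups. The experiments have separate controls, so experiment and group cannot be told apart across them. HMOX1 ran from 325 CPM in sh43 through 49.4 CPM in USP13 shCtrl, 43.1 CPM in sh52, 37.6 CPM in sh50 and 36.9 CPM in ZHX2 shCtrl to 29.6 CPM in sh45. Libraries of neighbouring groups overlapped from USP13 shCtrl down to ZHX2 shCtrl, and the sh43 and sh45 groups stood apart at the ends. NQO1, GCLM, GCLC, TXNRD1, SRXN1, AKR1B10 and AKR1C1 also had their highest group mean in sh43, AKR1C1 with libraries that overlapped the next group, whereas NFE2L2 was highest in sh52 and BACH1 in ZHX2 shCtrl.

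The difference between sh52 and sh50 is a description too for the members, since the levels of both groups were known when they were chosen. Of the 10 members 2 were called lower, where 5.48% of all tested genes were called higher and 4.74% lower. Without overlap in CPM, 1 member lay higher and 5 lower, beside 13.9% and 13.1% of all genes. AKR1B10 averaged 5.17 ± 0.323 CPM in sh52 cells and 11.2 ± 1.49 CPM in sh50 cells (SD, n = 3 each), a log2 difference of -1.12 ± 0.16 and of -1.07 without sh52 replicate 1. SRXN1 averaged 55.6 ± 5.41 CPM in sh52 cells and 68.2 ± 4.02 CPM in sh50 cells, a log2 difference of -0.30. It was -0.22 without sh52 replicate 1 and then not called, nor was it called without sh50 replicate 2. HMOX1 averaged 44.3 ± 6.31 CPM in sh52 cells and 38.6 ± 2.11 CPM in sh50 cells, a log2 difference of 0.20 ± 0.09 and of 0.31 without sh52 replicate 1. The other 7 members had log2 differences from -0.67 for AKR1C1 to 0.13 for NFE2L2.

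Further NRF2 target genes were taken from a list of 30 that holds no member, of which 27 were tested. This list and those below were drawn up with earlier results of these data known. Their counts and adjusted p values are therefore no independent support. AKR1C2 and GPX2 had too few counts, and TRIM16L was not analysed here. Under sh43, 16 rose and 8 fell, where 33.5% of all tested genes rose and 35.2% fell, with a median log2 difference of 0.30 beside -0.02 for all tested genes. Cystine transporter SLC7A11 averaged 145 ± 2.56 CPM in sh43 cells and 29.6 ± 2.96 CPM in shCtrl cells, a log2 difference of 2.29 with adjusted p = 1.08e-19. OSGIN1, an oxidative stress growth inhibitor, rose by 2.18, the exporter ABCC2 by 1.69, thioredoxin (TXN) by 1.03, TRIM16 by 0.81 and the autophagy receptor SQSTM1 by 0.75 on the log2 scale. Epoxide hydrolase EPHX1 fell by 0.93, cytosolic isocitrate dehydrogenase IDH1 by 0.75, AKR1C3 by 0.47, AKR1B1 by 0.36, the exporter ABCC1 by 0.31 and malic enzyme ME1 by 0.24. CBR3 rose by 0.60 and the quinone reductase NQO2 by 0.37.

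Under sh45, 5 of the 27 rose and 12 fell, beside 25.3% and 27.3% of all genes, with a median of -0.11 beside -0.01 for all genes. Carbonyl reductase CBR3 rose by 1.16, OSGIN1 by 0.80 and TXN by 0.52, and AKR1C3 fell by 1.51, IDH1 by 1.02 and TRIM16 by 0.57. ABCC1 fell by 0.36, EPHX1 by 0.27, AKR1B1 by 0.14 and ME1 by 0.16, the ME1 call being lost in 7 of 15 alternatives. NQO2 rose by 0.25, which did not pass without sh45 replicate 3. SLC7A11 rose by 0.19 (adjusted p = 0.0479), a call lost in 7 of 15 alternative settings. Between the hairpins, sh45 over sh43, 4 rose and 19 fell, beside 34.2% and 32.7% of all genes, with a median of -0.48 beside 0.02. SLC7A11 averaged 33.8 ± 3.23 CPM in sh45 cells and 145 ± 2.56 CPM in sh43 cells, a log2 difference of -2.10. ABCC2 differed by -1.89, OSGIN1 and TRIM16 both by -1.38. Both hairpins share their shCtrl libraries, so their calls are not independent.

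Fewer genes of the list passed under the USP13 hairpins, where fewer of all genes did too. Under sh52, 3 rose and 5 fell, beside 5.45% and 6.56% of all genes, with a median of -0.08 beside -0.00. Without sh52 replicate 1, 2 rose and 5 fell, since TXN no longer passed. Under sh50, 3 rose and 6 fell, beside 10.2% and 11.3%, with a median of -0.09 beside 0.00. ABCC2 fell by 0.40 under sh52 and by 0.67 under sh50, IDH1 by 0.25 and 0.71, AKR1B1 by 0.20 and 0.40, and the ferritin heavy chain FTH1 by 0.20 and 0.40. The exporter ABCC3 rose by 0.34 under sh52 and by 0.41 under sh50, and EPHX1 by 0.24 and 0.21. The AKR1B1 call under sh52 was lost without shCtrl replicate 2. For sh52 over sh50, 5 rose and 2 fell, beside 5.48% and 4.74% of all genes, IDH1 with a log2 difference of 0.46 (adjusted p = 2.93e-06) and SLC7A11 with -0.58 (adjusted p = 0.00144).

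**Figure D3:**
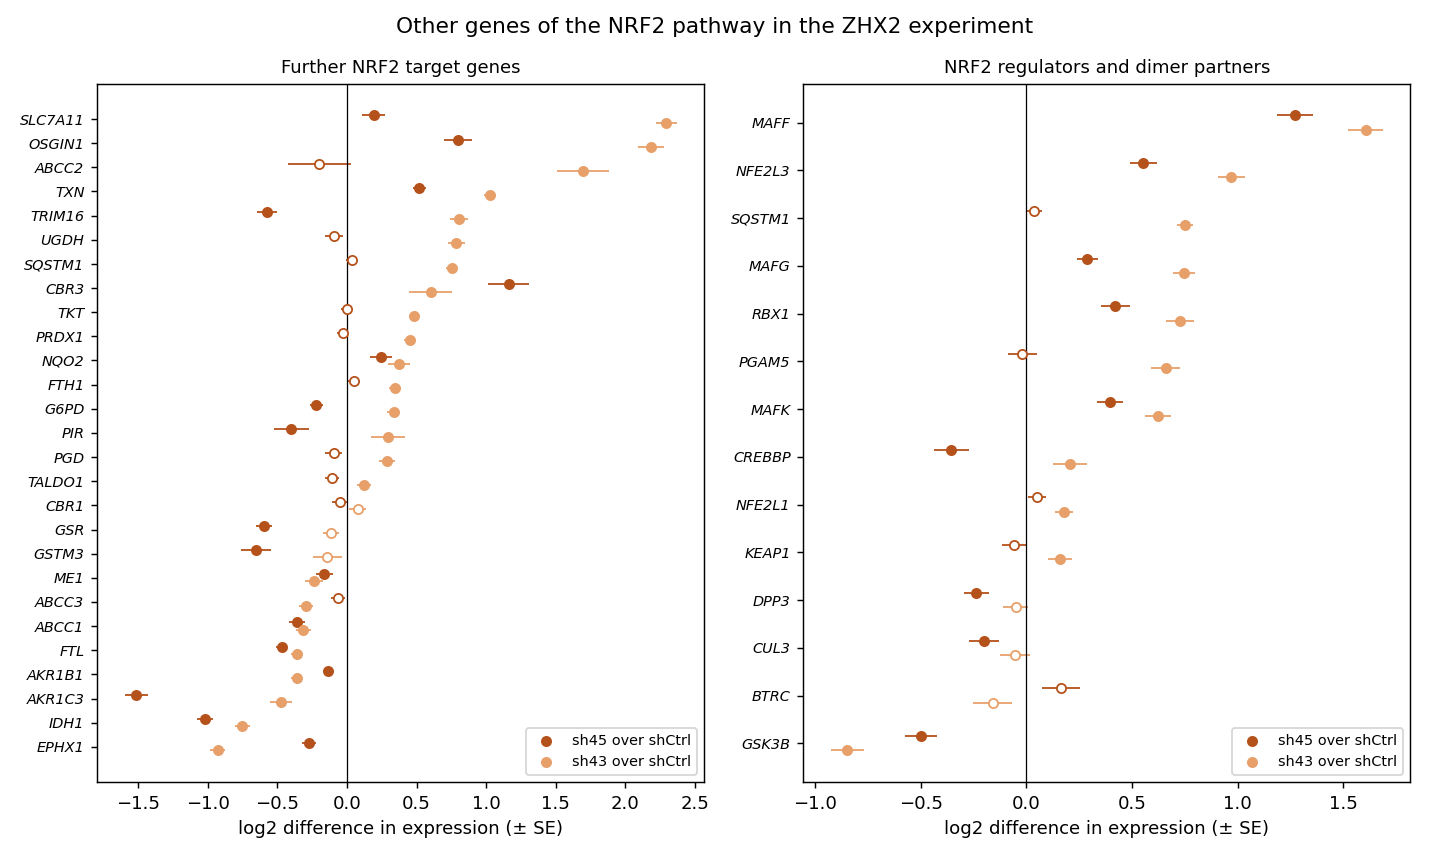
Log2 differences (± SE) of further NRF2 target genes and of genes that control NRF2 for sh45 and sh43 over shCtrl in the ZHX2 experiment, with filled points for an edgeR adjusted p under 0.05 and open points otherwise. Under sh43 over shCtrl the targets run from EPHX1 at -0.93 to SLC7A11 at 2.29.

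Of 15 genes that control NRF2 or bind beside it, 14 were tested. SQSTM1 among them is also in the target list. Medians of all tested genes are those given for the target list. Under sh43, 10 rose and 1 fell (33.5% and 35.2% of all genes), with a median of 0.42, and under sh45, 5 rose and 4 fell (25.3% and 27.3%), with a median of 0.04. The small MAF gene MAFF averaged 35.4 ± 1.75 CPM in sh45 cells, 44.6 ± 1.56 CPM in sh43 cells and 14.7 ± 0.533 CPM in shCtrl cells. Its log2 difference was 1.27 under sh45 and 1.61 under sh43. MAFG rose by 0.29 under sh45 and 0.75 under sh43, MAFK by 0.40 and 0.62, the related factor NFE2L3 by 0.55 and 0.97, and RBX1, a subunit of the KEAP1 ubiquitin ligase, by 0.42 and 0.73. GSK3B, a kinase that marks NRF2 for degradation, fell by 0.50 under sh45 and by 0.85 under sh43. KEAP1 averaged 111 ± 4.57 CPM in sh45 cells, 129 ± 7.2 CPM in sh43 cells and 116 ± 5.24 CPM in shCtrl cells. It rose under sh43 by 0.16 (adjusted p = 0.016), a call lost in 4 of 15 alternatives, and did not pass under sh45, at -0.06. For sh45 over sh43, 2 of the 14 rose and 11 fell (34.2% and 32.7% of all genes). SQSTM1 fell by 0.72, the KEAP1-binding phosphatase gene PGAM5 by 0.68, the coactivator gene CREBBP by 0.56 and MAFG by 0.46.

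In the USP13 experiment, 2 of these 14 rose and 1 fell under sh52 (5.45% and 6.56% of all genes), and 1 rose and 1 fell under sh50 (10.2% and 11.3%). MAFF averaged 25.5 ± 4.87 CPM in sh52 cells, 16 ± 1.58 CPM in sh50 cells and 13.8 ± 1.95 CPM in shCtrl cells. It rose under sh52 by 0.88 on the log2 scale (1.03 without sh52 replicate 1), did not pass under sh50 at 0.22, and differed between sh52 and sh50 by 0.67 with adjusted p = 0.00145. MAFK rose by 0.42 under sh52 (0.54 without sh52 replicate 1), a call lost without shCtrl replicate 1 or 2. GSK3B fell by 0.29 under sh52 and by 0.23 under sh50, and RBX1 rose by 0.24 under sh50, the sh50 calls being lost in 4 and 3 of 15 alternatives. KEAP1 did not pass under either hairpin, at -0.04 for sh52 and -0.15 for sh50.

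HMOX1 acts on heme, so 21 genes of heme and iron handling were counted. FTH1 and FTL among them are also in the target list. Under sh43, 8 rose and 8 fell of 20 tested (33.5% and 35.2% of all genes), with a median of 0.05, and under sh45, 2 rose and 9 fell (25.3% and 27.3%), with a median of -0.14. The transferrin receptor TFRC averaged 242 ± 8.25 CPM in sh45 cells, 621 ± 15.1 CPM in sh43 cells and 241 ± 15.8 CPM in shCtrl cells, a log2 difference of 1.37 for sh43 and 0.00 for sh45. Enzymes of heme synthesis did not share a direction under sh43. ALAS1, its rate-limiting enzyme, rose by 0.74, and ALAD fell by 1.57, UROS by 1.32 and PPOX by 1.07. Under sh45, ALAD fell by 0.31 and UROS by 0.41, PGRMC1 by 0.62 and the heme exporter gene FLVCR1 by 0.34, and the iron regulatory protein genes IREB2 and ACO1 fell by 0.76 and 0.65. IREB2 fell by 0.72 under sh43, and FLVCR1 by 0.28, a call lost without replicate 3 of sh43 or of shCtrl. Biliverdin reductase BLVRA rose by 0.37 under sh45 and by 0.31 under sh43. For sh45 over sh43, 4 rose and 10 fell (34.2% and 32.7%), with TFRC at -1.36, ALAD at 1.26, PPOX at 1.22 and UROS at 0.92. The ferritin light chain FTL fell by 0.47 under sh45 and by 0.36 under sh43, and FTH1 rose by 0.35 under sh43. HMOX2, the constitutive heme oxygenase, fell by 0.25 under sh45 and by 0.18 under sh43, the sh43 call being lost in 4 of 15 alternatives. In the USP13 experiment 1 rose and 4 fell of 21 under sh52 (5.45% and 6.56% of all genes), and likewise 1 and 4 under sh50 (10.2% and 11.3%). The heme transporter SLC48A1 rose by 0.49 under sh52 and by 0.46 under sh50, and the heme-binding protein gene PGRMC1 fell by 0.36 under each. Ferrochelatase FECH fell by 0.43 and ALAD by 0.27 under sh52, the ALAD call being lost without sh52 replicate 2 or shCtrl replicate 1, and BLVRB fell by 0.35 under sh50.

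**Figure D4:**
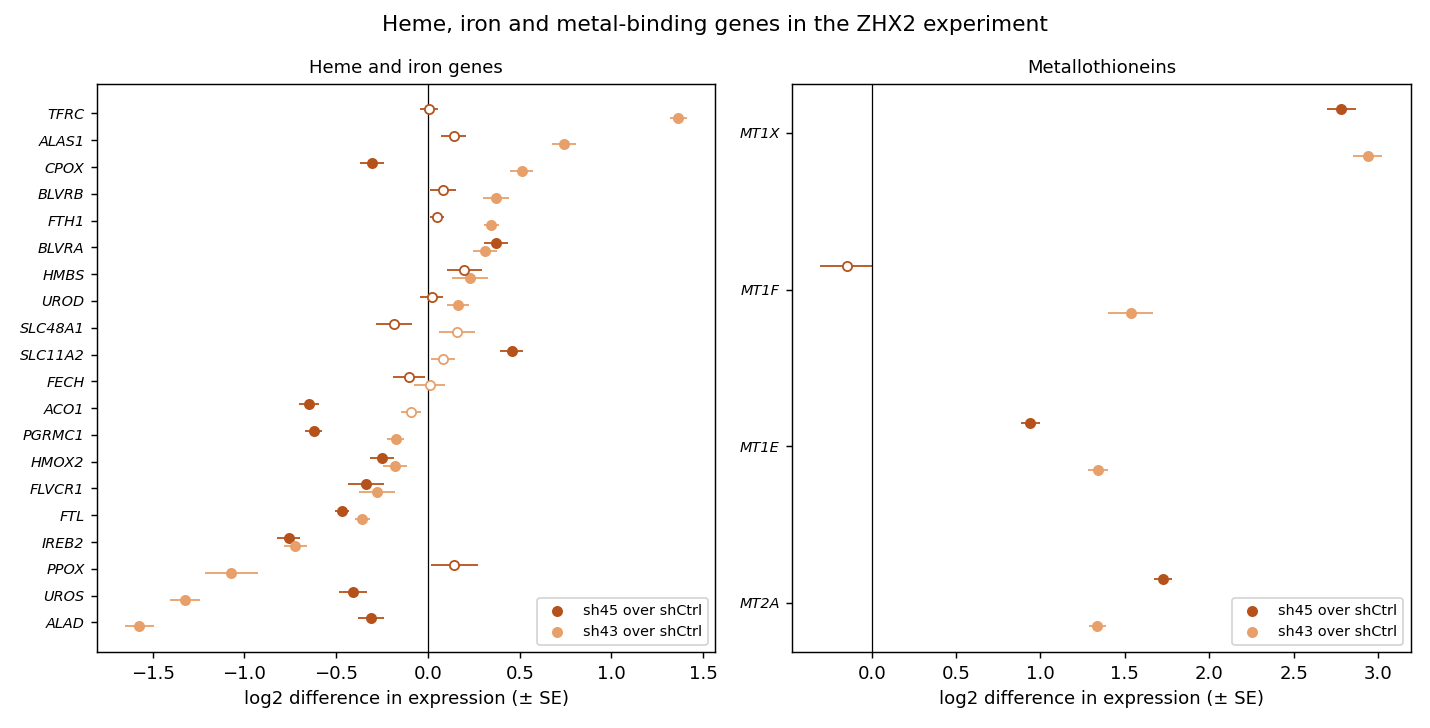
Log2 differences (± SE) of heme and iron genes and of metallothionein genes for sh45 and sh43 over shCtrl in the ZHX2 experiment, with filled points for an edgeR adjusted p under 0.05 and open points otherwise. Under sh43 over shCtrl TFRC lies at 1.37 and ALAD at -1.57, and MT1X lies at 2.78 under sh45 and 2.94 under sh43.

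Metallothioneins are small metal-binding proteins whose genes respond to zinc, cadmium and oxidants, and 4 of 7 listed genes were tested. All 4 rose under sh43 and 3 rose under sh45, where 33.5% and 25.3% of all genes rose, with medians of 1.33 for sh45 and 1.44 for sh43. MT1X averaged 79.4 ± 1.11 CPM in sh45 cells, 88.7 ± 9.94 CPM in sh43 cells and 11.5 ± 0.691 CPM in shCtrl cells. MT2A averaged 1585 ± 52.8 CPM in sh45 cells, 1209.6 ± 70.7 CPM in sh43 cells and 478 ± 43.2 CPM in shCtrl cells. MT1E rose by 0.94 under sh45 and by 1.34 under sh43, and MT1F rose by 1.53 under sh43. In sh45 over sh43, MT1F fell by 1.68, MT1E by 0.40 and MT1X by 0.16, the MT1X call being lost in 10 of 15 alternatives, and MT2A rose by 0.39. MT1X and MT2A were therefore above control under both ZHX2 hairpins, unlike HMOX1. Under sh52 the 4 lay between -0.24 and 0.09 and did not pass, and under sh50 3 fell (11.3% of all genes), MT2A by 0.42, MT1X by 0.31 and MT1E by 0.27, the MT1X call being lost in 4 of 15 alternatives and that of MT1E without sh50 replicate 2. The copies are close in sequence, so reads shared between them are divided by estimate.

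Among 25 further antioxidant genes, 12 rose and 7 fell under sh43 (33.5% and 35.2% of all genes) and 8 rose and 8 fell under sh45 (25.3% and 27.3%). Mitochondrial glutaredoxin GLRX2 rose by 1.83 under sh43, GLRX3 by 0.99 and GGCT by 1.00. Under sh45 glutaredoxin GLRX rose by 0.84, GGCT by 0.55 and GLRX2 by 0.39, the GLRX2 call being lost in 4 of 15 alternatives, and extracellular superoxide dismutase SOD3 fell by 0.72. Peroxiredoxin PRDX4 rose by 0.51 under sh45 and by 0.33 under sh43, GLRX5 by 0.34 and 0.31, glutathione synthetase GSS by 0.23 and 0.35, and PRDX6 by 0.18 under each. Methionine sulfoxide reductase MSRB2 fell by 0.60 under sh45 and by 0.72 under sh43, PRDX2 by 0.37 and 0.64, and mitochondrial superoxide dismutase SOD2 by 0.29 and 0.47. Between sh45 and sh43, 7 were higher and 12 lower in sh45 (34.2% and 32.7% of all genes). In sh45 over sh43 GLRX2 fell by 1.45, GLRX3 by 1.15 and GPX3 by 0.87, and GLRX rose by 0.86. The GPX3 call, at 12 to 30 counts a library in these groups, was kept in 7 of 15 alternatives. Catalase (CAT) averaged 31.7 ± 1.88 CPM in sh45 cells, 36.2 ± 1.36 CPM in sh43 cells and 70.5 ± 1.44 CPM in shCtrl cells, a log2 difference of -1.15 for sh45 and -0.96 for sh43. Of 24 tested with USP13, 4 rose and 4 fell under sh52 (5.45% and 6.56% of all genes), and 4 and 4 under sh50 (10.2% and 11.3%), with CAT falling by 0.33 and by 0.32. PRDX4 fell by 0.31 under sh52 and by 0.37 under sh50, and MSRB1 by 0.33 and 0.27. Phospholipid hydroperoxidase GPX4 rose by 0.29 and 0.16, and PRDX2 by 0.17 and 0.21, the GPX4 call under sh50 being lost in 2 of 15 alternatives and the PRDX2 call under sh52 in 3. Under sh50 GGCT rose by 0.36, lost without shCtrl replicate 1, and GLRX fell by 0.39, lost in 6 of 15 alternatives.

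The genes whose pattern was most like HMOX1 were found by the Pearson correlation over 18 libraries of log2 CPM less the mean of the own experiment's controls. Among 2974 genes with group means that spanned at least 1, TXNRD1 was first (r = 0.991), followed by the glycyl-tRNA synthetase gene GARS1 (0.985), the chaperonin subunit gene CCT4 (0.985), DNAAF5 (0.984) and the proteasome subunit gene PSMD2 (0.983). Without the 3 sh43 libraries the values were 0.434, 0.252, 0.554, 0.179 and 0.265 over 15 libraries, so the likeness rests on sh43. Of the other members, GCLM ranked 31, NQO1 32, AKR1B10 198 and AKR1C1 909. GCLC, SRXN1, NFE2L2 and BACH1 did not reach that span and were not compared. The values share the control means that were subtracted, and no p is given.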

How the data were processed

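The 18 RNA libraries of 786-O cells formed 6 groups of 3, taken from titles and characteristics. Per the file headers, each deposited file lists RefSeq transcripts with length, effective length, TPM and estimated count. Salmon 0.11.3, STAR 2.5.2b, DESeq2 1.14.1, cutadapt 1.12 and hg19 appear, without roles, per the submitters' processing notes. The deposited estimated counts were whole numbers within 1e-06 and not scaled for depth. TPM values, as deposited by the authors, have an equal total in each library and entered no test. Effective lengths as deposited by the authors served as offsets in an alternative.

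Counts of 60422 transcripts were rounded and summed to 27086 genes by symbol, from the RefSeq gene table for 59301 and GENCODE for 684. The 437 unnamed transcripts, 0.0854% to 0.12% of counts, were left out. Totals ranged from 11192561 to 16511290. Chi-square per degree of freedom was 2.33 to 6.68 over 18 replicate pairs, so no library was a repeat of another. Low genes were removed with filterByExpr, leaving 13715 genes (USP13) and 13604 (ZHX2). Differences were fitted per experiment with edgeR 4.0.16 (R 4.3.3) by the quasi-likelihood F-test, TMM scaling and Benjamini-Hochberg adjustment over all genes tested, called at 0.05. The scripts were tested on simulated data. Errors of log2 differences are the difference divided by the square root of F.

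Members and lists were chosen with earlier results of these data known. Named genes are all members and, of each list, the 4 largest differences called and those called the same way under both hairpins, with KEAP1, USP13 and ZHX2. Marker lists were given as sums, with CD68, PTPRC, ESAM and markers at 0 named after their values were seen. So were some list genes in comparisons where the rule does not name them. A test of the members between sh52 and sh50 was planned and is given as a description. Likeness to HMOX1 used log2(CPM + 0.5). Alternatives were DESeq2 1.42.0, other scaling, no filter, length offsets, a replicate block, each library left out and all 18 libraries in a fit. Gene coordinates are not given, since the RefSeq tables are GRCh38 and the notes name hg19. Promoter letters are from RefSeq on GRCh38.p14.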

Additional observations from a re-analysis of the deposited data

Results flagged for a closer look

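Genes that lay on opposite sides of control under the ZHX2 hairpins, with every sh45 library below and every sh43 library above all shCtrl libraries, are given as the log2 difference of sh45 over sh43. They were HMOX1 (-3.44), AKR1B10 (-2.08), NQO1 (-1.64) and SRXN1 (-0.42) among the members. Further such genes were ABCC2 (-1.89), TRIM16 (-1.38), GLRX3 (-1.15) and SLC48A1 (-0.34). Of all tested genes, 29.3% lay lower without overlap under sh45 and 34.4% higher under sh43. How many did both was not counted. Over shCtrl, sh45 was not called for AKR1B10 (-0.25), SRXN1 (-0.11), ABCC2 (-0.20) and SLC48A1 (-0.18), nor was sh43 for SLC48A1 (0.16). The GLRX3 call under sh45 was kept in 11 of 15 alternatives. For the opposite directions as such, the difference was not tested.

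Other genes differed between sh52 and sh50 by edgeR's test, given as the log2 difference of sh52 over sh50. Higher under sh52 were MAFF (0.67), MT2A (0.50), IDH1 (0.46), MT1E (0.36), ABCC2 (0.27), SOD2 (0.27), BLVRB (0.24), AKR1B1 (0.21), FTH1 (0.20) and FTL (0.14). Lower under sh52 were AKR1B10 (-1.12), SLC7A11 (-0.58), AKR1C3 (-0.48), GGCT (-0.33), SRXN1 (-0.30), UROS (-0.25) and MAFG (-0.23). For the members AKR1B10 and SRXN1 these values are a description. Calls of ABCC2 and FTL were kept in 8 of 15 alternatives, those of BLVRB and GGCT in 11, those of UROS and SRXN1 in 13, and those of AKR1B1 and MAFG in 14. Without sh52 replicate 1, ABCC2 (0.17), UROS (-0.19) and SRXN1 (-0.22) no longer passed, and the other genes listed did.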

How the results depend on the processing

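No called result changed direction under 15 alternatives. Over them, the HMOX1 log2 difference was 3.06 to 3.18 for sh43, -0.36 to -0.31 for sh45, -3.52 to -3.37 for sh45 over sh43, -0.28 to -0.09 for sh52 and -0.44 to -0.36 for sh50. For sh52 over sh50 it was 0.12 to 0.31 with libraries left out, and was called only at 0.31, without sh52 replicate 1. NRF2 targets called numbered 22 to 24 for sh43, 15 to 18 for sh45, 22 to 24 for sh45 over sh43, 6 to 12 for sh52, 9 for sh50 and 5 to 7 for sh52 over sh50. All genes called for sh52 over shCtrl numbered 1648, but 1023 and 991 without shCtrl replicate 1 and 2, and for sh52 over sh50 1401, but 839 and 685 without sh50 replicate 1 and 2. The cause was not tested. Counts without sh52 replicate 1 were a choice made after seeing the data. For sh52 over shCtrl they were 3 of the NRF2 control list, 5 of the heme and iron list and 8 of the antioxidant list. They were the same with that library, but SOD2 was called only with it and SOD3 only without it. For sh52 over sh50 the counts of these lists were 3, 3 and 2 without it, against 2, 4 and 2 with it. AKR1C1 had the fewest counts of the members, 20 to 88 a library.

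Replicate numbers gave no sign of pairing the libraries. Same-numbered deviations correlated at -0.135 to 0.07 in the USP13 experiment and -0.085 to 0.047 in the ZHX2 experiment. Differently numbered ones correlated at -0.123 to 0.101 and at -0.098 to 0.117. With 3 libraries a group, these values cannot decide on a weak pairing. With a replicate block, HMOX1 differed by 3.11 for sh43, -0.34 for sh45, -3.45 for sh45 over sh43, -0.21 for sh52, -0.41 for sh50 and 0.20 for sh52 over sh50. NRF2 targets called were then 24, 16, 23, 8, 9 and 5.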
